A study of Mus musculus with 19 samples.

Results

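The 5-hydroxymethylcytosine (5-hmC) landscape of neonatal cardiomyocytes (CMCs) was described gene by gene from the 2 neonatal samples, which are 2 of the 19 samples of the series and 2 of the 8 with a peak list. Both are from C57BL/6J mice, and the CMCs came from ventricles of male pups 1 to 2 days old, digested with collagenase and freed of many non-myocytes by adhesion to culture dishes; by the study's methods a minority of cells in such preparations lacked sarcomeric actinin. Neither group nor treatment separates them, so each value below is given for both replicates and nothing is tested. DNA was enriched for 5-hmC with an antibody (hMeDIP), sequenced, and compared with input DNA to call peaks in each replicate. For every protein-coding gene on the 19 autosomes that spans 5 kb or more in mm10 (15498 of 20021 genes), the percent of its base pairs under peaks was computed in each replicate, and genes were ranked by the lower of the 2 values.

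5-hmC arises when TET enzymes oxidise 5-methylcytosine, largely at CpG dinucleotides. It is a stable mark in cells that divide rarely, such as neurons and heart muscle, and there it is known to lie over the gene body (GB) of transcribed genes. hMeDIP finds stretches of DNA with enough of the mark to be enriched, not single bases, and in a bulk preparation a peak cannot be assigned to a cell type.

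Only 1 gene had 80% or more of its length under peaks in both replicates. Of the 20 highest genes 5 belonged to lists of heart function, which hold 229 of the 15498 ranked genes. These lists were drawn up with earlier results of these data known. Ankrd23, a stretch-responsive ankyrin repeat protein of the sarcomere, ranked first with 86.7% of its length under peaks in replicate 1 and 87.3% in replicate 2. Cpt1b, which admits long-chain fatty acids to muscle mitochondria, followed with 79.9% and 89.1%. Ttn, which encodes the giant spring protein titin, had 43.1% and 42.4% of its 279 kb under peaks. In contrast Actc1, the cardiac actin gene, and Pln, which encodes the regulator of the sarcoplasmic calcium pump, had no base under a peak in either replicate.

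To show what the antibody enriched in these genes, the central 200 bases of the widest region common to both replicates are printed for Ankrd23, Cpt1b and Ttn. The promoters of Actc1 and Pln stand beside them as sequence that no peak touched. Windows within genes and promoters are unlike places, so this does not compare covered with bare genes. Of all genes 77.9% and 76% had no peak within 1 kb of the transcription start site in replicates 1 and 2. All sequences are from the GRCm38.p6 (mm10) reference, those of the promoters as RefSeq lists them. They are written on the strand of the gene with each CpG in capitals.
Ankrd23 (chr1:36533091-36533290, minus strand, intron): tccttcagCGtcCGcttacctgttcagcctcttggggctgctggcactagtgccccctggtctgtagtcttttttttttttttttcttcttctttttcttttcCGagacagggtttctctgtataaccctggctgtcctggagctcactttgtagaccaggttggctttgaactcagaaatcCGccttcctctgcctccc
Cpt1b (chr15:89421694-89421893, minus strand, intron): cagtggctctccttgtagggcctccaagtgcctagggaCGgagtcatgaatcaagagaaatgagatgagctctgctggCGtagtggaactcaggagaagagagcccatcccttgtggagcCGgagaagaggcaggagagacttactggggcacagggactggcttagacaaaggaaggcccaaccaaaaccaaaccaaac
Ttn (chr2:76739974-76740173, minus strand, coding exon): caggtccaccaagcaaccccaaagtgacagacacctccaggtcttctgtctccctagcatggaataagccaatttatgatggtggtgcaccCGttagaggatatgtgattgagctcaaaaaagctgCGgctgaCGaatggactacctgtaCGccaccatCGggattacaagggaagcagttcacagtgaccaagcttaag
Actc1 promoter (chr2:114052826-114053125, minus strand): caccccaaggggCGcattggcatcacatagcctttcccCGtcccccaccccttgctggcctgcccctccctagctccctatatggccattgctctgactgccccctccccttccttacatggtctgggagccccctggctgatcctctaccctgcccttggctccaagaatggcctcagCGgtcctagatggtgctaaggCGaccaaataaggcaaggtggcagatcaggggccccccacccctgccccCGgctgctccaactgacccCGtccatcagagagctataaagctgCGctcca
Pln promoter (chr10:53337436-53337735, plus strand): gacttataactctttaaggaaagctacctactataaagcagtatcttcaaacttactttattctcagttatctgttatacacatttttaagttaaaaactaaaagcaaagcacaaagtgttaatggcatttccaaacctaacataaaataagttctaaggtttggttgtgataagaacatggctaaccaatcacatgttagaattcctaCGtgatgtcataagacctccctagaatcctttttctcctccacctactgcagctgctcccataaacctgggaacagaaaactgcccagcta
The 3 windows under peaks hold 4, 3 and 5 CpGs in 200 bases, in the order printed. The 300 bases of the Actc1 promoter hold 7 CpGs and those of the Pln promoter hold 1, so the CpG density of the Actc1 promoter, 2.33 per 100 bases, lay within the range of the windows (1.5 to 2.5) and that of Pln, 0.333, below it. The whole regions are wider than the windows. That of Ankrd23 spans 5424 bp, of which 37.2% is exon, and that of Cpt1b 6084 bp with 30.3% exon. The Ttn region spans 7756 bp and lies entirely in coding exon.

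Coverage was low for most genes. Replicate 1 held 137172 peaks and replicate 2 held 153637, with a median width of 501 bp in both. On the autosomes they covered 96 Mb (4.01%) and 117 Mb (4.89%), and 42.3 Mb lay under peaks of both, which is 44.1% of the covered base pairs of replicate 1 and 36.1% of those of replicate 2. The median gene had 4.2% of its length under peaks in replicate 1 and 5.1% in replicate 2, with a median of 3.11% for the lower value. The distribution had a long upper tail, since the 90th percentile of the lower value was 15.8% and the 99th was 38.9%. Only 50 of the 15498 genes had 50% or more of their length under peaks in both replicates. The peak lists hold no read numbers, so no counting error could be given for these values.

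The 20 leading genes had lower values from 60.2% to 86.7%, and several serve contraction, calcium signalling or energy supply. Calm3, one of the genes for the calcium sensor calmodulin, had 79.7% and 93.2% of its length under peaks. Cox4i1, a subunit of cytochrome c oxidase, had 77.3% and 85.2%. Adcy6, the adenylyl cyclase that raises cyclic AMP after adrenergic stimulation, had 72.2% and 73.8%, close together in the 2 libraries. Slc4a3, an anion exchanger, had 71.5% and 70.1%. Myh7b, a slow-type myosin heavy chain, had 70.5% and 64.6%, and Pnpla2, the triglyceride lipase of the lipid droplet, had 60.9% and 64.7%. Mamstr, a coactivator of MEF2, and Coro6, a coronin that binds actin, also stood in this group with 62.4% and 71.4%, and with 60.2% and 68.5%. The others included genes of broad function, such as Hnrnpl, an RNA-binding protein, with 75.6% and 69.5%, and Cxxc1, which encodes a protein that binds unmethylated CpG, with 84.9% and 71.9%. Of these 20 genes 2, among them Myh7b, overlap another ranked gene, and their peaks cannot be assigned to 1 of the genes. In replicate 2, the library with more base pairs under peaks, 16 of the 20 were higher.

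**Figure D1:**
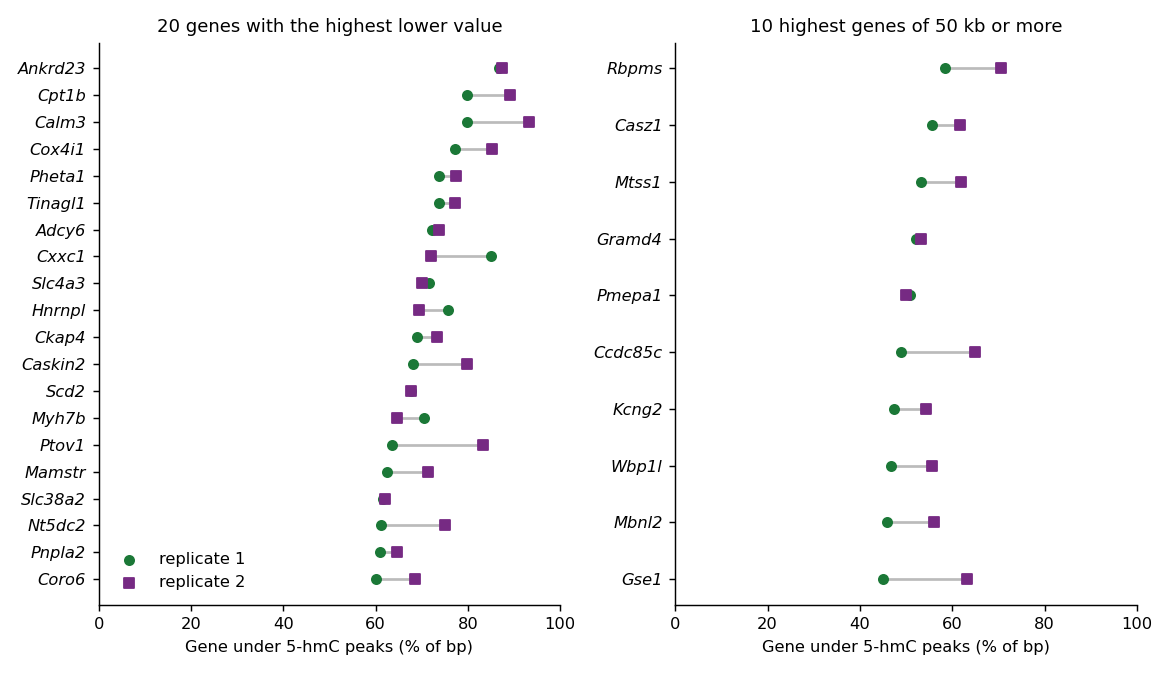
Percent of the gene under 5-hmC peaks in replicate 1 (green circles) and replicate 2 (purple squares) for the 20 genes with the highest lower value (left) and the 10 highest genes of 50 kb or more (right). The grey line joins the replicates of a gene; Ankrd23 is at 86.7% and 87.3%, and Rbpms, the highest long gene, at 58.4% and 70.6%.

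The leading genes were short. Their median length was 8.34 kb, 13 of the 20 were under 10 kb, and the longest was Myh7b at 23.1 kb, so that few peaks, often 1 or 2, covered them. The widest peaks on Ankrd23 were 5519 and 5489 bp. Among genes of 50 kb or more, where many separate peaks make up the value, Rbpms led with 58.4% and 70.6% of 147 kb under peaks. Rbpms encodes an RNA-binding protein of heart and smooth muscle, and 38 common regions lay across it. Casz1, a zinc-finger factor needed for heart development, had 55.7% and 61.6% of 151 kb. Mtss1, which binds actin and the membrane, had 53.2% and 62%, and Mbnl2, a splicing regulator, had 45.8% and 56%. Gramd4, Pmepa1, Ccdc85c, Kcng2, Wbp1l and Gse1 completed these 10 genes, with lower values from 45.1% to 52.1%. Ttn was longer than any of these at 279 kb and ranked 118 of all genes, and the widest peak of replicate 1 on any autosome, 19734 bp, lay on it. The longest stretch of Ttn without a peak in either replicate was 10.1 kb.

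The leading group was taken as the 1550 genes whose lower value reached the 90th percentile, which is 10% of all genes by definition. Uaca stood just inside it with 15.8% and 23.6%, and Mgat5 just outside with 15.8% and 18.9%. Of the 229 genes in 8 lists of heart function, 96 (41.9%) were in the leading group, and their median lower value was 13.3% against 3.11% over all genes. Of these 229 genes 194 lay above the median of all genes. With genes ranked only against others of like length the share was 42.8%. Among the 213 of them that overlap no other ranked gene it was 41.3%. Their overlap with shorter or non-coding genes was not checked.

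Thick filament genes had the highest median of the 8 heart lists. Of 14 thick filament genes 9 were in the leading group, with a median of 22.4%, and all 14 lay above the median of all genes. Myh7b, whose locus overlaps another gene, led this list, followed by Myl3, the ventricular essential light chain, with 43.1% and 58.1%, and by Ttn. Myh6, the alpha myosin heavy chain of the adult mouse ventricle, had 38.3% and 56.5%, and its neighbour Myh7, the beta chain that predominates before birth, had 32.8% and 21.2%, so their order was the same in both replicates. In Myh6 the mark was denser towards the 3′ end, with 24.2% and 31.9% of the first 50% of the gene and 52.4% and 81.1% of the last 50% under peaks. The lowest thick filament gene was Mylk3, the cardiac myosin light chain kinase, with 5.33% and 16.6%.

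Thin filament genes ranged from bare, meaning no base under a peak in either replicate, to 53.2%, with 6 of 14 in the leading group and a median of 14.6%. Tpm1, the main cardiac tropomyosin, led with 63.4% and 53.2%, most of it in the last 50% of the gene, where 92.7% and 75% lay under peaks. Lmod2, a nucleator of actin filaments, had 38.4% and 27.9%, and Tnnt2, cardiac troponin T, had 29.3% and 30.1%. Nebl and Neb, genes for large actin-binding rulers, had under 4% in both replicates despite spanning 388 and 202 kb.

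Of 43 genes of the Z-disc and costamere, the structures that anchor filaments and tie them to the membrane, 19 were in the leading group, with medians of 16.7% and 18.4% in the replicates and no bare member. After Ankrd23, Xirp1 had 54.1% and 65%, and Bag3, a chaperone partner, had 49% and 54.7%. Xirp1 and Xirp2 encode related actin-binding proteins, but Xirp2 had 2.78% and 1.86% under peaks over 80.6 kb. Of 17 intercalated disc genes 8 were in the leading group. Gja1, the main ventricular gap junction protein, had 32% in each replicate, beta-catenin (Ctnnb1) had 35.9% and 31.9%, and plakoglobin (Jup) had 27.5% and 46.4%.

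Of 29 calcium handling genes 12 were in the leading group, and of 30 ion channel genes 14, with medians of 12.4% and 11.8%. Jph2, which couples the cell membrane to the sarcoplasmic reticulum, had 42.8% and 53.4%, and Casq1, a calcium-binding protein of that store best known from skeletal muscle, had 46.4% and 50%. Kcne1, a potassium channel subunit, had 32.2% and 37.5%. Some long genes of the same machinery were picked out after their values were seen. Cacna1c, the L-type calcium channel, had 32.6% and 32.2% over 609 kb, and Ryr2, the calcium release channel, had 16.6% and 16.5% over 554 kb. Trdn, a partner of Ryr2 in the same complex, had 1.56% and 0.925% over 393 kb. The replicates differed by under 1 percentage point in each of these 3 genes.

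Of 40 cardiac transcription factor genes 17 were in the leading group and 33 lay above the median of all genes, but 3 were bare in both replicates. Zfpm1, a partner of GATA factors, led with 44.5% and 46.9%, followed by Hopx with 40.9% and 33.9%, Prdm16 with 32.3% and 35.9%, and Foxo3 with 29.2% and 39.9%. Gata6 had 25.7% and 40.2%, and Mef2c, a factor of early heart muscle differentiation, had 8.27% and 9.33%. The list of natriuretic peptide and adrenergic signalling genes was lower, with 11 of 42 in the leading group and a median of 9.26%, led by Adcy6 and by Rcan1, a calcineurin inhibitor, with 36.5% and 57.7%.

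**Figure D2:**
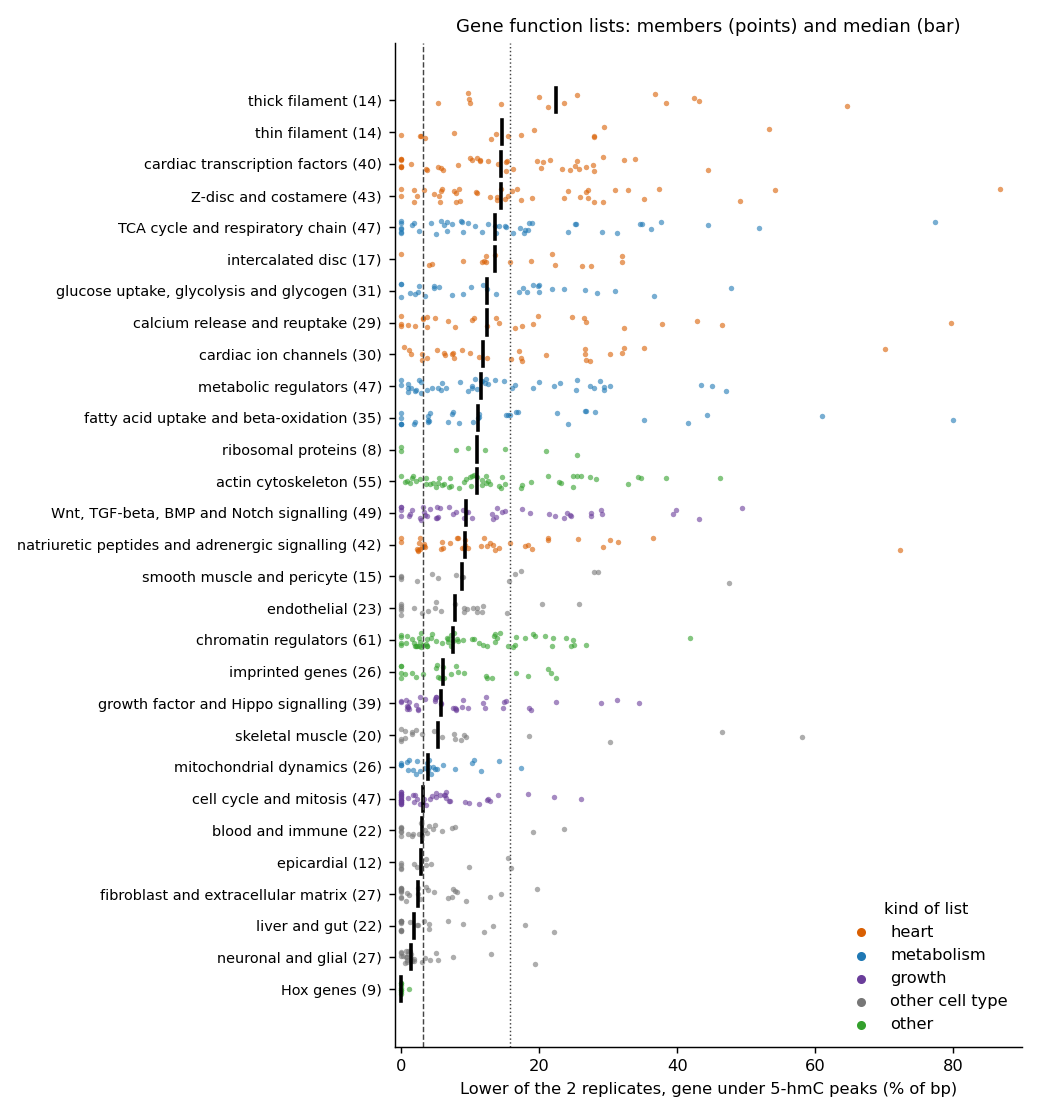
Lower of the 2 replicates' percent of the gene under peaks for each member (points) of 29 gene function lists, with the list median as a black bar and the number of members in brackets. The dashed line marks the median of all genes (3.11%) and the dotted line the lowest value of the leading group (15.8%); heart lists have medians from 9.26% to 22.4%, and Hox genes lie at 0 to 1.14%.

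Genes of fuel use followed the same pattern, with 63 of 186 members (33.9%) of 5 metabolic lists in the leading group and a median of 10.3%. In fatty acid uptake and oxidation 12 of 35 genes were leading. Cpt1b and Pnpla2 were followed by Acot2, a mitochondrial thioesterase, with 45.9% and 44.3%, and Mlycd, which degrades malonyl-CoA, with 41.6% and 46.3%. In glucose use 14 of 31 were leading. Eno3, the muscle enolase, had 47.7% and 65.4% and Ldha, the subunit favoured in glycolytic tissue, had 31% and 49.5%. In the TCA cycle and respiratory chain 19 of 47 were leading, with Cox4i1, Ndufb9 (51.8% and 62.9%) and Atp5a1 (66.1% and 44.4%) first, although among genes of 20 kb or more this share was 23.8%. Among 47 metabolic regulators 17 were leading. Nr1d1, a heme-binding repressor of the circadian clock, had 47.1% and 57%. Ppargc1b, a coactivator of mitochondrial genes, had 43.4% and 46.1% over 109 kb. Nr1d1 and Atp5a1 each overlap another ranked gene, and of the 167 metabolic list genes that overlap none 34.1% were leading. Ppara, the fatty acid-sensing nuclear receptor, had 19% and 22.5%. Of 26 genes of mitochondrial dynamics and quality control 1 was in the leading group, with a median of 3.89%, but without replicate 1 this became 3 of 26 (11.5%), against 10% of all genes.

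Lists with other functions ranged from the level of the heart lists to far below it. Of 49 Wnt, TGF-beta, BMP and Notch genes 16 were leading (median 9.35%), headed by the inhibitory Smad7 with 55.6% and 49.3%. Of 61 chromatin regulators 15 were leading (median 7.52%). Genes of the actin cytoskeleton and its regulators had 17 of 55 leading (median 10.9%), growth factor and Hippo genes 6 of 39 (5.75%) and imprinted genes 5 of 26 (6.06%). Of the 39 ribosomal protein genes listed, 31 are shorter than 5 kb, and 2 of the remaining 8 were leading (median 10.9%), or 5 of 8 without replicate 2. A list of 11 ranked genes drawn up around the subject of the study had 5 leading (median 8.27%), but it leaves out some genes the study names and was chosen with these data known. Among the enzymes that make the mark, Tet3 had 19.1% and 31.5%, Tet2 7.56% and 10.9%, and Tet1 6.82% and 7.13%. Of 47 cell cycle genes 3 were leading, with a median of 3.17%, close to that of all genes. The highest were Cdc6, which licenses replication origins, with 30.4% and 26%, and the mitotic kinase Cdk1 with 41.1% and 22.1%. Hox genes, which pattern the body axis, were the least covered list. Of the 39 Hox genes listed, 30 are shorter than 5 kb. None of the remaining 9 was leading, and the highest, Hoxa3, had 1.14% and 2.09%. Of these 9 genes, with a median length of 7.68 kb, 5 had no base under a peak in either replicate. Among all genes of 5 to 10 kb 35.7% were bare. Of the 9 Hox genes 3 span 20 kb or more, among them the bare Hoxb3 at 24.8 kb. Among all genes of 20 to 50 kb 8.94% were bare.

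Genes that mark other cell types, some of the heart and some of other organs, were checked against the label. In 8 lists of other cell types, without genes of the heart lists, 15 of 161 (9.32%) were in the leading group, near the 10% of all genes. Their median lower value was 2.75%, against 3.11% over all genes. Of 27 fibroblast and matrix genes 1 was leading (Gsn, 19.6% and 22.4%), with a median of 2.43%. Col3a1 and Lum were bare, and Col1a2 and Vim had 1.39% and 5.88% in replicate 1 and none in replicate 2. Endothelial genes were higher, with 2 of 23 leading, no member bare in both and a median of 7.7%. Eng had 25.8% and 25.9%, Nos3 20.9% and 20.4%, and Pecam1 15.3% and 26.8%. Eng and Nos3 each overlap another ranked gene, and of the 21 endothelial genes that overlap none, 0 were leading. Smooth muscle genes had 5 of 15 leading, among them Smtn with 47.5% and 51.4% and Des, which is also a heart gene, but 3 of 15 with either replicate left out. Whether non-myocytes in the preparation contributed to these peaks was not tested. Blood and immune genes had 2 of 22 leading (median 2.92%) and epicardial genes 1 of 12 (2.87%). Neuronal (median 1.44%) and liver and gut genes (median 1.76%) were lowest among these lists. Skeletal muscle genes had 4 of 20 leading, of which Ckm, the muscle creatine kinase, had 58.1% and 72.3%, whereas Myh4 was bare.

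Of all genes 2200 (14.2%) were bare, against 6 of the 229 heart list genes. The heart list genes were longer, with a median of 50.6 kb against 25.3 kb over all genes. Among all genes of 50 to 100 kb 2.35% were bare, and the part of length in the difference was not tested. Actc1 spans 5.59 kb (chr2:114047282-114052875) and its nearest peaks lay 21.1 kb and 18.5 kb away in replicates 1 and 2. Pln spans 8.31 kb (chr10:53337686-53345999) with peaks 1.8 kb and 0.772 kb away, and its locus overlaps Cep85l. Rgs4, an inhibitor of G protein signalling, spans 6.17 kb and had peaks 0.858 kb and 0.834 kb away. The bare factors included Nr2f1 and Nr2f2, which act in atrial identity. Nr2f1 had its nearest peaks 23.1 kb and 1.19 kb away, and Nr2f2 49.4 kb and 3.81 kb away. Of the 6 bare heart list genes 4 were under 10 kb long, where 35.7% of all genes were bare.

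A further 9 heart list genes were bare in 1 replicate. They were Cryab, Ilk, Fkbp1b, Gata5, Nfatc3 and Arrb2, bare in replicate 1, and Tmem38a, Isl1 and Dsc2, bare in replicate 2. The highest value in the other replicate was 19.9% (Ilk). Another 24 autosomal genes of the heart lists are shorter than 5 kb and were not ranked. Of these 10 had no base under a peak in either replicate, including Nkx2-5, Hand2, Tnnc1 and Nppb, against 70.3% of all 4523 autosomal genes of that length. Nppa had none in replicate 1 and 48.2% in replicate 2, from a single peak on 1.35 kb. By contrast Tcap, the titin cap, had 52% and 78.4%, and Tnni3, cardiac troponin I, had 48.9% and 58%.

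Of the 186 genes of the 5 metabolic lists 7 were bare, against 14.2% of all genes. They were Tfam and Tfb2m, the factors of mitochondrial transcription, and Echs1 in fatty acid oxidation. The others were Ndufa4 and Ndufv1 in the respiratory chain, and Bnip3 and Clpp in mitochondrial quality control. Ndufa4, Ndufv1 and Clpp are under 10 kb long, where 35.7% of all genes were bare. The longest bare genes of the genome were Sycp1, a meiotic protein, at 118 kb and Pik3c2a, a lipid kinase, at 106 kb. Skint4, Gm17330, Ccl21b, Efcab7, Gm4788, Gm10634, St8sia4 and Vmn2r60 followed, from 96.1 kb down to 79.3 kb. Between 24.2% and 64.8% of the length of these 10 genes is soft-masked as repeat or low-complexity sequence in the reference, against a median of 23.9% over all genes and 24.1% over the bare ones. By the words of gene names, 91 of 127 vomeronasal receptor genes and 30 of 47 genes with olfactory in the name were bare, and 0 and 1 were leading. Of 43 genes with muscle in the name 15 (34.9%) were leading, and of 65 with myosin 17 (26.2%), against 10% of all genes. Other words lay above, near or below that share. With light in the name 11 of 43 (25.6%) were leading, with exchange 11 of 44 (25%) and with phosphatase 42 of 220 (19.1%). With calcium in the name 13 of 124 (10.5%) were leading, with mitochondrial 21 of 212 (9.91%) and with cytochrome 10 of 128 (7.81%). These words were read out after the ranking was made. The authors removed reads of low mapping quality before calling peaks, which can leave repeats and near-identical gene copies without peaks, and the part of this in the bare genes was not tested.

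The replicates ranked genes alike, more closely for long genes than for short ones. Over all genes Pearson's r between the replicates was 0.811 and Spearman's rho 0.727, as a description across genes, which are not independent. Spearman's rho rose with each class of length, from 0.591 at 5 to 10 kb (2790 genes) through 0.782 at 20 to 50 kb to 0.949 at 100 kb or more (2207 genes). The median difference, replicate 2 minus replicate 1, was 0.277 percentage points, and 90% of genes lay between -7 and 11.6. Replicate 2 was higher in 52.4% of genes and replicate 1 in 29.8%. The leading groups of the replicates, each the 10% of genes highest in that library, shared 1050 of 1550 genes (67.7% of each), and the leading 100 shared 56. Of the genes leading in replicate 1, 35 were bare in replicate 2, and 36 the other way round.

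**Figure D3:**
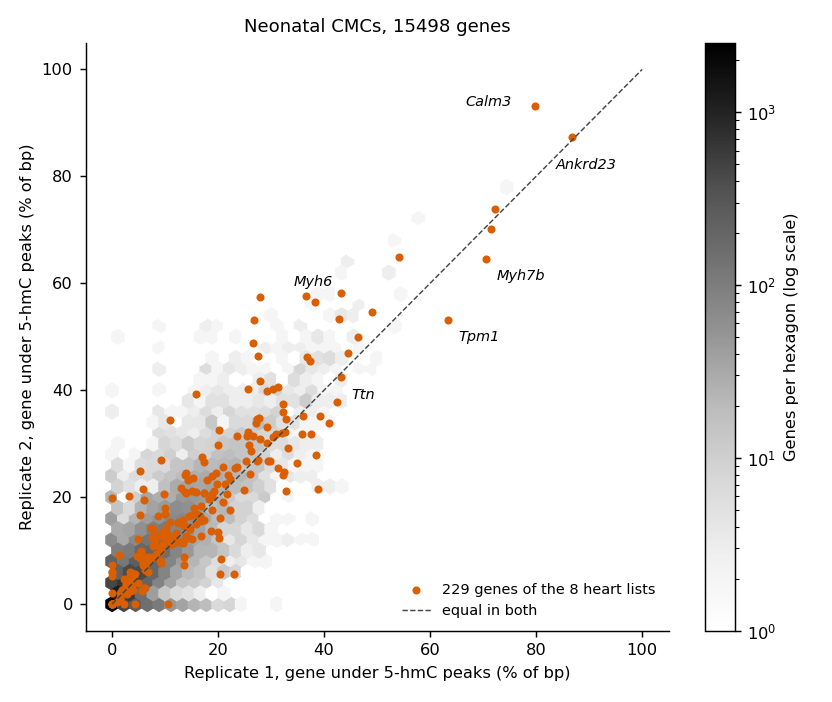
Percent of the gene under 5-hmC peaks in replicate 1 (horizontal axis) against replicate 2 (vertical axis) for 15498 genes, as hexagons shaded by the number of genes on a log scale. Orange points are the 229 genes of the 8 heart lists and the dashed line marks equal values; r is 0.811 over all genes, and Ankrd23 and Ttn lie close to the line.

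Bare genes followed length too. Genes bare in both replicates made up 35.7% of those of 5 to 10 kb and 0.0906% (2 genes) of those of 100 kb or more, and genes bare in 1 replicate 26.6% and 1.22%. The share in the leading group stayed between 9.35% and 11.1% in all classes of length. Replicates 1 and 2 were bare for 3601 and 3293 genes, of which 2200 were shared, 61.1% and 66.8% of each.

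**Figure D4:**
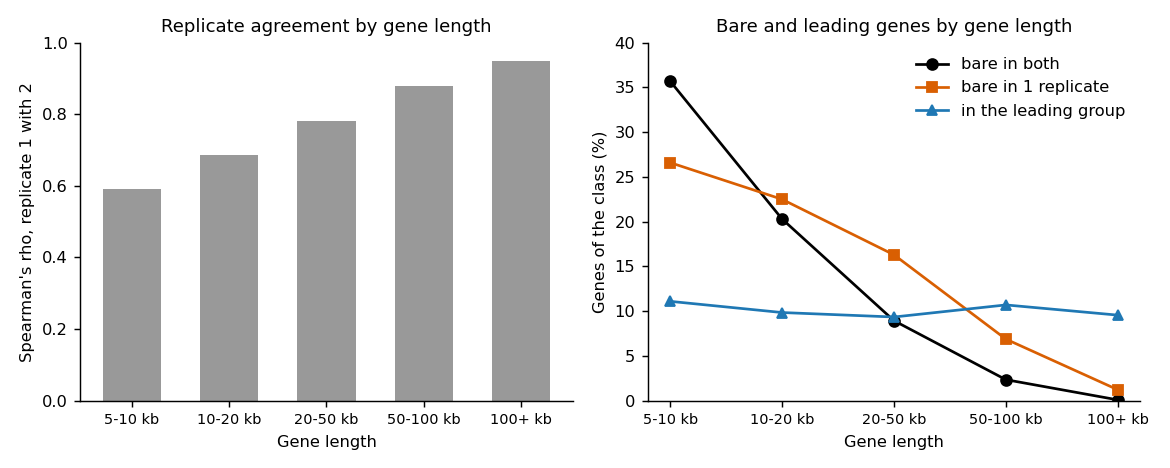
Left, Spearman's rho between the replicates for genes in 5 classes of length, rising from 0.591 to 0.949. Right, percent of genes in each class that were bare in both replicates (black circles), bare in 1 (orange squares) and in the leading group (blue triangles); bare genes fall from 35.7% to 0.0906% while leading genes stay near 10%.

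Some genes of 20 kb or more differed widely. Syde2, a GTPase-activating protein, had 71.5% in replicate 1 and 52.7% in replicate 2, and Septin4, Pard6b and Ipo13 had 33% and 13.1%, 33.5% and 13%, and 25.5% and 5.62%. In the opposite direction Nynrin had 11.1% and 46.5% and Tpst2 12% and 44.8%. Szrd1 had 23.3% and 51.1%. These genes were taken for their difference, and with 1 library each nothing separates the animals from the libraries.

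Within genes the mark was spread over the body rather than gathered at its ends. In both replicates coverage rose from the transcription start site (TSS) to a highest value of 7.34% and 9.03% at 5 to 10% of the gene's length and declined to 5.42% and 6.68% at 70 to 75%. The first 50% of the gene was covered 1.16 and 1.15 times as densely as the last. Coding exons outside promoters had 10% and 11.4% of their base pairs under peaks and introns 6% and 7.23%, against 2.66% and 3.31% outside genes. The 2 kb around a TSS had 6.25% and 7.23%, close to introns, yet of the CpGs there only 4.28% and 4.77% lay under peaks, against 9.89% and 11.5% of those in introns and 13.8% and 15.8% in coding exons. For the leading group, chosen for high coverage of the gene, 2 kb were taken around 1 TSS per gene, a part of which lies outside the gene. These stretches had 10.5% and 12% under peaks, against 5.36% and 6.15% over all genes counted in the same way. Of the leading genes 60.3% and 57% had none there, against 77.9% and 76% of all genes.

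**Figure D5:**
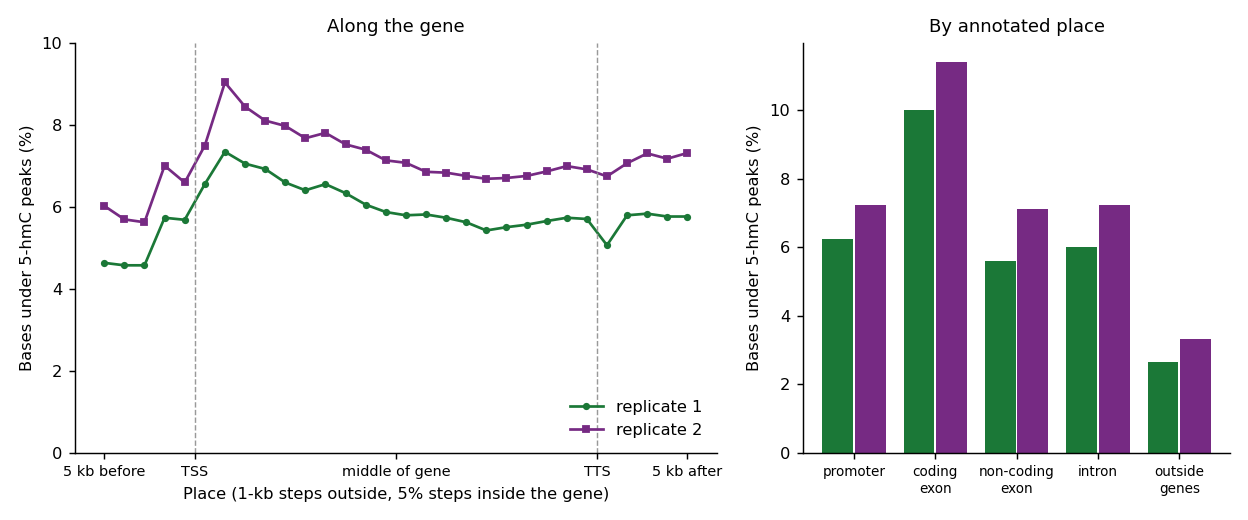
Left, percent of base pairs under 5-hmC peaks from 5 kb before the TSS to 5 kb after the transcription termination site (TTS), in 20 equal steps within the gene, for replicate 1 (green) and replicate 2 (purple). Right, the same percent by annotated place; both replicates are highest in coding exons (10% and 11.4%) and lowest outside genes (2.66% and 3.31%).

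CpG density and repeat content, which the ranking did not use, changed along it. Median CpG density fell from 1.65 per 100 bp in the leading group through 1.13 around the median rank to 0.771 in the last ranks above 0, and was 0.971 in genes bare in both. The soft-masked share rose from 18.6% to 30.1% along the same ranks. Median length was 24.3 kb in the leading group, close to the 25.3 kb of all genes, and 10.9 kb in bare genes. Across genes Spearman's rho with CpG density was 0.371 for the lower value and 0.422 and 0.458 for replicates 1 and 2. With the masked share it was -0.216, and -0.26 and -0.254. With length, by which each value is divided, it was 0.216 for the lower value but 0.0982 and 0.0921 for the replicates themselves. Peaks themselves held 1.42 and 1.36 CpGs per 100 bp against 0.851 over the autosomes. An antibody can recover more from CpG-rich DNA, and the part of this in the ranking was not tested. Leading genes also lay near one another. With the next ranked gene on either side counted, 38.3% of them had a leading neighbour on the chromosome, against 16.3% of the others. Overlapping genes, which can share peaks, were kept in this count. By chromosome the median lower value ran from 1.78% on chromosome 13 to 4.38% on chromosome 10.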

How the data were processed

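5-hmC was measured by hMeDIP sequencing in 2 neonatal CMC samples. According to the study's methods, the authors mapped reads to mm10 (BWA 0.7.4-r385 per the labels), used Picard for duplicates, discarded poorly mapped reads and ran HOMER findPeaks in histone mode on each replicate with input as control. The deposited lists give positions only: their score column holds 1 for every peak, and neither tag numbers nor depth are included. Per the file headers, input was scaled to the immunoprecipitate in replicate 1 and the immunoprecipitate to input in replicate 2.

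Genes were protein-coding loci of GRCm38.p6 (RefSeq release 108.20200622), from the first to the last base of their curated transcripts. Base pairs under peaks were counted with Python 3.11.15, numpy 2.4.6 and pandas 2.3.3, by code tested on simulated data against bedtools 2.31.1. A gene was leading at or above the 90th percentile of the lower value and bare at 0 bp. Promoters were 1 kb on each side of a TSS. Correlations used scipy 1.17.1. With 1 group of 2 samples no test was made.

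The 30 gene lists and the members were chosen with earlier results of these data known. Genes named were the 20 highest, the 10 highest of 50 kb or more, of each list up to 4 leading and 4 bare genes (all bare heart genes), the 10 longest bare, the 4 with the largest difference each way, a short list drawn up around the study, and those under the 5 widest common regions; others are chosen after their values were seen. Alternatives covered gene length, annotation, masked bases, CpGs and the way replicates were joined. Genes that overlap no other ranked gene were a further alternative, chosen after seeing the data. The other 6 peak lists were not used here, and a few named genes and 1 sequence are not reported.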

Additional observations from a re-analysis of the deposited data

How the results depend on the processing

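Of 39 alternative values of the results above, 29 stayed within the spread between the replicates, within 0.05 for a correlation, or within 1.5 times the value for a count or share. The median percent of the gene under peaks was 4.74 with the mean of the replicates, 0.963 with base pairs under peaks of both, and from 4.2 to 5.1 with a replicate left out. Spearman's rho between the replicates was 0.84 in genes of 20 kb or more and 0.66 with peaks per 10 kb. Genes bare in both replicates numbered 3384 with a minimum of 2 kb, 469 with 20 kb, 1153 when no peak within 5 kb was allowed either, and from 3293 to 3601 with a replicate left out. The mean of the replicates cannot lie below the lower value, and base pairs under peaks of both cannot exceed it. The other minimum lengths take in other genes. Why rho changed was not tested. The share of heart list genes in the leading group ranged from 34.9% with base pairs under peaks of both replicates to 45.9% with CpGs. Of 216 alternative values for single lists 25 moved by over 1.5 times, 9 of them upwards; among heart lists this was the intercalated disc, at 29.4% with base pairs under peaks of both replicates. No paired analysis was possible because the 2 samples form 1 group. The lists hold no depth, so counting error could not be given, and short genes, which few peaks can cover, have the least certain values.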
